A study of Homo sapiens with 2 samples.

Results

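The regions described here are stretches of the genome that carried the histone mark H3K4me1, lay between protein-coding genes and had no called H3K27ac. They were chosen from the peak lists by position and overlap: merged H3K4me1 intervals on chromosomes 1 to 22 and X, outside every protein-coding gene, more than 2.5 kb and at most 500 kb from the nearest end of such a gene, and sharing no base pair with any H3K27ac peak. This gave 29503 regions out of 139511 H3K4me1 intervals (21.1%), covering 6.06 Mb, and they are called H3K4me1-only regions below. The steps were 108854 intervals away from gene ends, 43407 of these outside gene bodies, and 40776 of these within 500 kb of a gene end. Of those 40776, 72.4% shared no base pair with H3K27ac (95% interval 71.9 to 72.8) and are the regions described, while the other 11273 overlapped an H3K27ac peak and serve for comparison as both-mark regions. Because the choice used the H3K4me1 calls and the H3K27ac calls, depth and acetylation are given as descriptions and were not tested.

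The cells were C4-2B, a human prostate cancer line that grows without androgen and descends from LNCaP, made resistant to the antiandrogen enzalutamide by at least 6 months of culture with the drug. Both libraries came from these resistant cells and differed only in the antibody, H3K4me1 or H3K27ac, with 100000 cells and 14 PCR cycles for each. In CUT&Tag, the assay used, the antibody brings a transposase to marked nucleosomes so that the DNA there is cut and tagged. There was 1 library per antibody, so nothing here has a replicate check and no parental or untreated cells were compared.

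H3K4me1 is placed on enhancers by the methyltransferases KMT2C and KMT2D, often before an enhancer becomes active, and it can remain after activity is lost. H3K27ac is added by the coactivators p300 and CBP and marks enhancers and promoters in use, so distal DNA with H3K4me1 but without H3K27ac is commonly called a primed enhancer, or a poised one where the repressive mark H3K27me3 is present. In prostate cells enhancers are bound by factors such as FOXA1, HOXB13 and GATA2, and the set that is acetylated changes as tumours become resistant to androgen blockade. Neither H3K27me3 nor any of these factors was measured, and a lack of a called H3K27ac peak is not a lack of acetylation. The H3K27ac list held 64784 peaks, and in both libraries the weakest called peak had 4 fragments at its summit. The identity of the cells was checked at gene ends: all 7 prostate luminal markers, among them KLK3 and HOXB13, had both marks within 1 kb. H3K27ac was found at 0 of 3 basal, 0 of 3 stromal and 0 of 3 endothelial markers and at 1 of 4 neuroendocrine markers (SYP, 38 fragments). H3K4me1 was more widespread, at 2 of 3 basal, 1 of 3 stromal, 0 of 3 endothelial, 4 of 4 neuroendocrine and 1 of 4 blood markers. H3K27ac was also found at 2 of 4 blood markers, among them CD3E, a T-cell receptor subunit, with 14 fragments.

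A few of the regions lay on genes whose products are known, and these are printed first. Of the 1558 microRNA hairpins read here, 12 overlapped 8 H3K4me1-only regions and 13 overlapped a both-mark region. Over the microRNA genes of RefSeq as a whole, 9 H3K4me1-only and 15 both-mark regions overlapped one. The classes differ in size, and these are 0.0305% of the H3K4me1-only and 0.133% of the both-mark regions. The miR-17-92 cluster, a set of microRNAs processed from 1 transcript and known to promote proliferation in cancer, held a pair of them inside its host gene MIR17HG (13:91347687-91354577 on GRCh38). The region 13:91350614-91350870 had 25 fragments at its summit (95% Poisson interval 16.2 to 36.9) and covered MIR18A and 75 of the 84 bp of the MIR17 hairpin. The next, 13:91351041-91351368, had 19 fragments (11.4 to 29.7) and covered MIR20A, MIR19B1 and 55 of the 78 bp of MIR92A1. The remaining hairpin of the cluster, MIR19A, lay 21 bp from a region. The only H3K27ac peak at the gene was at its start, 13:91347372-91349301, with 31 fragments, and H3K4me1 peaks of 41 and 19 fragments overlapped it, so the 2 regions over the hairpins lay 1.31 and 1.74 kb downstream of the acetylated stretch. The mature sequences below are from RefSeq, 5′ to 3′, with the seed (bases 2 to 8, which pair with targets) in capitals. miR-17-5p and miR-20a-5p have the same seed, and the miR-18a, miR-19b and miR-92a seeds differ from it and from each other.
hsa-miR-17-5p: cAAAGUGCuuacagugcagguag
hsa-miR-20a-5p: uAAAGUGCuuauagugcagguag
hsa-miR-18a-5p: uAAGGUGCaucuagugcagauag
hsa-miR-19b-3p: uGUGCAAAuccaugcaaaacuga
hsa-miR-92a-3p: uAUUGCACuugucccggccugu

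The deepest region over the hairpins read here was 11:64891090-64891726, with 47 fragments (34.5 to 62.5). It lay 2.64 kb from H3K27ac and 2.82 kb from an end of ATG2A, an autophagy lipid-transfer gene. It covered the whole hairpins of MIR192 and MIR194-2, which are transcribed together and are best known from gut, liver and kidney. The hairpin of MIR223, a microRNA of myeloid blood cells, lay in X:66018565-66019032, with 17 fragments (9.90 to 27.2), only 0.402 kb from an H3K27ac peak and 2.71 kb from an end of VSIG4, a macrophage complement receptor. The other hairpins were MIR7158, in a region of 21 fragments nearest to SOX11, MIR378G (19 fragments), MIR5702 (9 fragments) and MIR130A (5 fragments). The main arms of MIR192, MIR194-2 and MIR223 are shown because each hairpin lay wholly inside a region and each microRNA is best known outside the prostate, and no seed is shared among them or with the cluster above.
hsa-miR-192-5p: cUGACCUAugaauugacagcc
hsa-miR-194-5p: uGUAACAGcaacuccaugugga
hsa-miR-223-3p: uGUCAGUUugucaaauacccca

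Starts of long non-coding RNA (lncRNA) genes allowed some DNA at the regions to be read. RefSeq promoters (250 bases before to 50 after a start) were the only genomic sequence used. Under the same location limits 6335 lncRNA promoters were read. Of these, 228 overlapped an H3K4me1-only region and 509 a both-mark region, and 14 and 132 lay wholly inside one. For the rest, part of the sequence read lay outside the region. Promoters overlapping H3K4me1-only regions had a median of 4 CpG dinucleotides (quartiles 2 and 8) and 49% GC. Promoters overlapping both-mark regions had a median of 15 (5 to 26) and 59% GC. Those overlapping H3K27ac alone had 12 (7 to 20), and the 5501 with neither mark had 3 (1 to 6). At least 15 CpG were present in 13.2% of promoters under H3K4me1 alone (9.06 to 18.2), in 51.5% under both marks (47.0 to 55.9), in 42.2% under H3K27ac alone (31.9 to 53.1) and in 8.42% under neither mark (7.70 to 9.18). In CpG content the H3K4me1-only promoters were thus close to unmarked promoters and far below both acetylated classes. Among promoters under 10 to 49 fragments, a comparison added after the values were seen, the median CpG counts were 4 (143 promoters, median pileup 18) and 16 (323 promoters, median pileup 26), so depth still differed between the classes. The plot of CpG content by class shows the medians and quartiles.

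**Figure D1:**
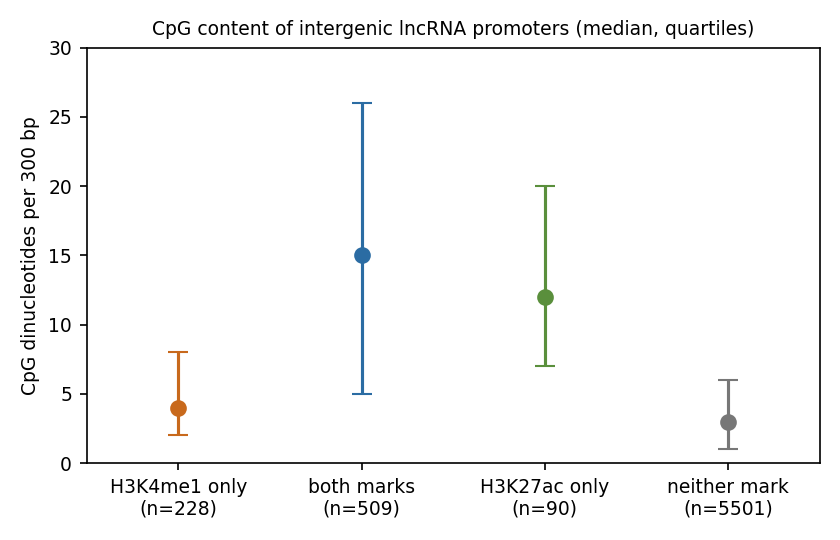
CpG dinucleotides in the 300 bp RefSeq promoters of intergenic lncRNA genes (y axis), by the mark they overlap (x axis, number of promoters in brackets). Points are medians and bars run from the lower to the upper quartile. The H3K4me1-only class, at a median of 4, lies beside the unmarked class at 3 and below the both-mark class at 15.

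The 3 deepest promoters lying wholly inside an H3K4me1-only region are printed with each CG in capitals to show the range within the class, followed by the 2 deepest wholly inside a both-mark region. LOC105371749 (17:36483061-36483360, minus strand) lay under 52 fragments (38.8 to 68.2), 2.78 kb from H3K27ac, and is CpG-dense with 34 CG. LOC124901325 (6:44727978-44728277, minus strand), under 42 fragments (30.3 to 56.8), has 9 CG. LINC01093 (4:184899412-184899711, minus strand), under 29 fragments (19.4 to 41.6) and 37.8 kb from H3K27ac, has 2 CG. The class therefore holds both CpG-dense and CpG-poor starts, with most near the poor end. Of the both-mark promoters, LINC01978 (17:79919107-79919406, plus strand) lay under 248 H3K4me1 and 145 H3K27ac fragments and has 13 CG. LINC01843 (5:134506302-134506601, plus strand) lay under 226 and 146 fragments and has 3 CG, so single promoters of either class can go against the medians.
LOC105371749 promoter: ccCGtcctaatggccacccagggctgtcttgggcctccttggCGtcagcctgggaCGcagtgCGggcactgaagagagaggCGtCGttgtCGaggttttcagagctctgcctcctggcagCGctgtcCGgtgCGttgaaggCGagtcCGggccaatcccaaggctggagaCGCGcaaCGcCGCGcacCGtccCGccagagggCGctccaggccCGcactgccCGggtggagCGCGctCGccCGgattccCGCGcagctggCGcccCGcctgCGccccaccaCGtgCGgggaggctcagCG
LOC124901325 promoter: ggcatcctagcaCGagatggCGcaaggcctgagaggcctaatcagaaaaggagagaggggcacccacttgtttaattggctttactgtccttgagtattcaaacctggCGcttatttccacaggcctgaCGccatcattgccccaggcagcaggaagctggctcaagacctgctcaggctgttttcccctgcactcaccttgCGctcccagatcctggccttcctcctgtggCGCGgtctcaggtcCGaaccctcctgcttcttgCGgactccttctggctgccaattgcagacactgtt
LINC01093 promoter: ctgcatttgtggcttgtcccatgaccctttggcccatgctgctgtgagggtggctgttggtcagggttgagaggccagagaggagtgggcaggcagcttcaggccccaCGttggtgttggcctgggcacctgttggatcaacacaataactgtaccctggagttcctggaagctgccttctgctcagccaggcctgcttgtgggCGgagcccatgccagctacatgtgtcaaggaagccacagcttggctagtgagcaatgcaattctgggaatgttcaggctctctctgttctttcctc
LINC01978 promoter: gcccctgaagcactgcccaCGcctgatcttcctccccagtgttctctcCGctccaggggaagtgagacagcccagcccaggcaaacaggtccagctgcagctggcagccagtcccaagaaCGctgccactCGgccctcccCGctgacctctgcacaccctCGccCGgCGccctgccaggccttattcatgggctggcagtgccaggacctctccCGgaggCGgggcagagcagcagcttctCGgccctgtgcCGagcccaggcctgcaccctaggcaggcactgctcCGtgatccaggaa
LINC01843 promoter: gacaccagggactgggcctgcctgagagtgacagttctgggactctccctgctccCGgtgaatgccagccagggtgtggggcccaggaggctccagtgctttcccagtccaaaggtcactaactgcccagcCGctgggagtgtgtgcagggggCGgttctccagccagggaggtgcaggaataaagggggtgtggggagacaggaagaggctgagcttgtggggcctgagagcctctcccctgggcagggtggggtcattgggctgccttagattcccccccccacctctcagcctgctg

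Short motifs of factors that work in prostate or epithelial enhancers were searched in the same promoters on both strands. The FOXA motif TGTTTAC was in 7.46% of H3K4me1-only promoters, 6.48% of both-mark promoters and 5.22% of all 6335. The GATA motif AGATAAG was in 4.39%, 2.36% and 3.74%, and the HOXB13 motif CAATAAA in 5.70%, 5.30% and 7.04%. The NFI half-site TTGGCA was in 22.4%, 18.1% and 16.8%, the AP-1 motif TGANTCA in 13.2%, 10.8% and 12.1%, and the E-box CAGCTG in 22.8%, 21.6% and 18.3%. The CTCF core AGGGGGC was in 7.02%, 11.6% and 6.57%, GRHL AACCGGTT in 0.439%, 0.589% and 0.110%, and ETS ACCGGAAGT in 0%, 1.38% and 0.316%. For every motif given the 95% intervals of the H3K4me1-only and both-mark promoters overlapped. None of these motifs contains another, and a match is a description of the letters and not a bound site.

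The H3K4me1-only regions were shallow and narrow. Depth is given as the number of fragments piled up at a peak's summit, recovered from the deposited values, and the median was 12 fragments (quartiles 8 and 19, range 4 to 190). The both-mark regions had a median of 28 (16 to 49, up to 385), and H3K4me1 intervals without H3K27ac inside gene bodies had 14 (9 to 23, up to 262). Width ran from 87 to 1286 bp with a median of 172 bp (123 to 247), against 326 bp (215 to 487) for the both-mark regions and 167 bp (121 to 238) for the intragenic class. The median fold enrichment over local background, as the authors deposited it, was 6.20 (4.82 to 8.80), against 11 and 5.97. Under 10 fragments were found at 11006 regions (37.3%), where counting error alone is large. The median local background was 0.710 fragments against 1.45 around both-mark regions, and 30.5% of H3K4me1-only regions sat on the commonest background of the library, 0.453 fragments, against 13.2% of both-mark regions. The box plot of depth and width shows the 2 classes without H3K27ac close together and the both-mark class above them on both scales.

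**Figure D2:**
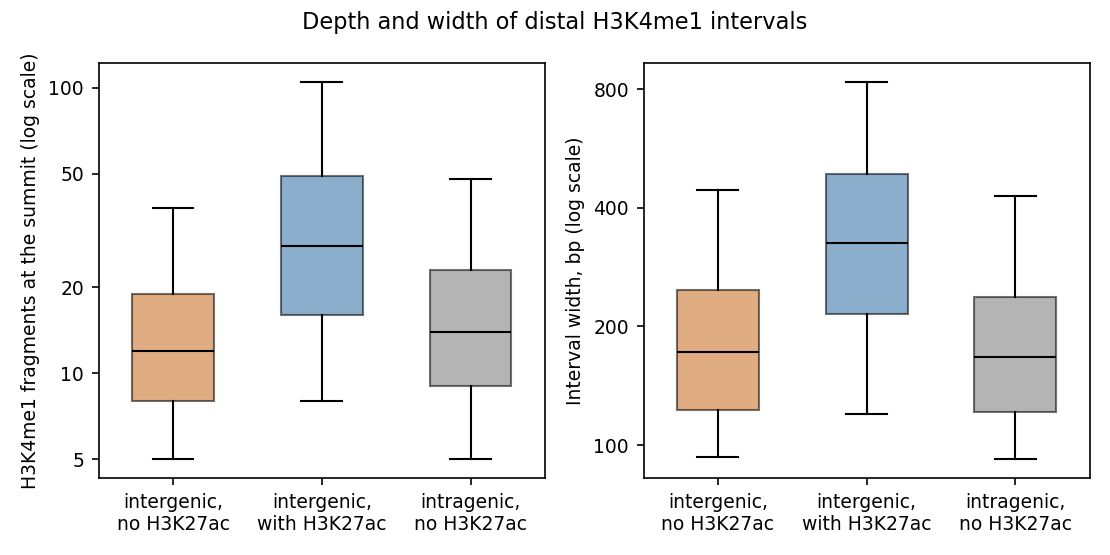
H3K4me1 fragments at the summit (left, log scale) and interval width in bp (right, log scale) for 29503 intergenic regions without H3K27ac, 11273 intergenic regions with H3K27ac and 43695 intragenic regions without H3K27ac. Boxes run between quartiles with a line at the median, and whiskers reach the 5th and 95th percentiles. Median pileups are 12, 28 and 14 fragments.

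How often H3K27ac was lacking fell steeply with H3K4me1 depth. Among intergenic regions of 4 to 9 fragments, 91.3% had no H3K27ac (11006 of 12049, 95% interval 90.8 to 91.8). The share was 81.3% at 10 to 19 fragments (80.6 to 81.9), 56.4% at 20 to 49 (55.5 to 57.3), 23.1% at 50 to 99 (21.5 to 24.7) and 5.94% at 100 or more (41 of 690, 4.30 to 7.97). Intervals inside gene bodies gave 90.5%, 81.1%, 58.7% (58.0 to 59.4), 25.8% (24.8 to 26.9) and 6.32% (5.42 to 7.33). The intergenic and intragenic shares were within 3 percentage points of each other in each class. Width differed within the same bins, in which the both-mark regions were still somewhat deeper: at 10 to 19 fragments the median was 182 bp without H3K27ac and 261 bp with it, at 20 to 49 it was 218 and 352 bp, and at 50 to 99 it was 244 and 424 bp. A wider interval has more base pairs that an H3K27ac peak can share, so this gap is tied to how the regions were chosen.

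**Figure D3:**
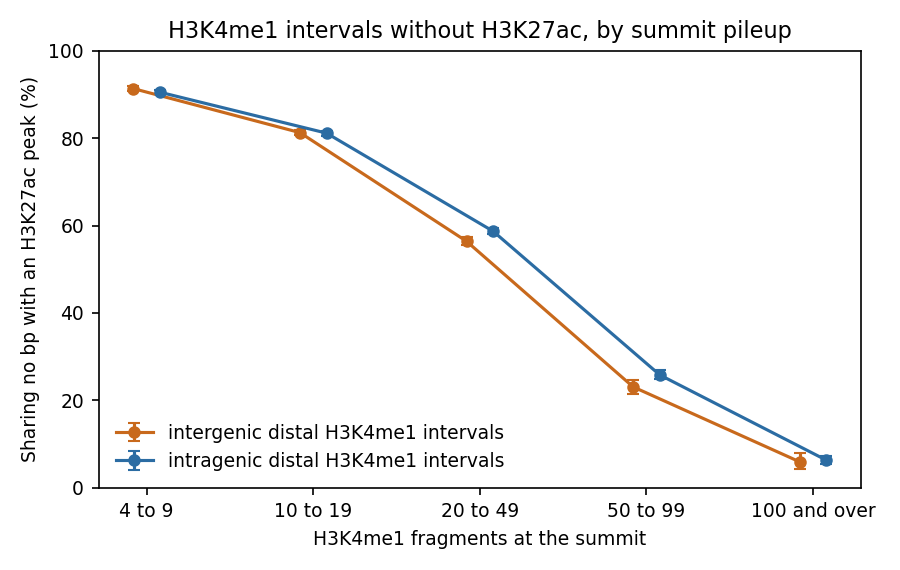
Share of distal H3K4me1 intervals that share no bp with an H3K27ac peak (y axis, percent) by H3K4me1 fragments at the summit (x axis), for intergenic and intragenic intervals. Bars are exact 95% binomial intervals, which cover counting error only. Both lines fall from about 91% at 4 to 9 fragments to about 6% at 100 and over.

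The 41 H3K4me1-only regions of 100 fragments or more are the exceptions, and the 10 deepest are named by their nearest protein-coding gene. The deepest, 7:155380227-155380380, had 190 fragments (164 to 219), was 154 bp wide and lay 70.0 kb from INSIG1, which holds back cholesterol synthesis, and 2.04 kb from H3K27ac. A region of 172 fragments (147 to 200) at 3:46660575-46661243 lay 7.75 kb from ALS2CL, and one of 160 (136 to 187) at 10:74821701-74821923 lay 3.01 kb from the histone acetyltransferase gene KAT6B. Of the rest, 4 had folds above 10. PBX3, a homeobox cofactor, had a region of 130 fragments (109 to 154) at 9:126082762-126083007, 30.9-fold over background, 115 kb from the gene and 33.4 kb from H3K27ac. TLE3, a Groucho-type corepressor, had one of 131 fragments at 15:70284513-70285168, 24.4-fold over background and 4.28 kb from H3K27ac. PRICKLE1, a planar cell polarity gene, had one of 131 fragments at 12:42759713-42760164, 24.0-fold over background. It was 162 kb from H3K27ac, the farthest of the 10. DRGX, a homeobox gene of sensory neurons, had one of 131 fragments at 10:49414612-49414764, at 11.5-fold. The others sat in dense signal, 154 fragments over a background of 38.5 at C1QTNF12, 131 over 28.2 at the kinase gene PRKCD and 137 over 16.1 at CRIP2, and all 3 were within 1 kb of H3K27ac. Depth and isolation from H3K27ac thus did not go together in this set, and 2 of the 10 lay more than 10 kb from acetylation.

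The 5 widest regions were not the deepest. A region at 15:31991858-31993143 near LOC124903441 was 1286 bp wide with 23 fragments (14.6 to 34.5). The next, 3:24662513-24663713, was 1201 bp wide with 54 fragments (40.6 to 70.5) and lay 166 kb from RARB, a retinoic acid receptor whose promoter is often silenced in prostate cancer, and 165 kb from H3K27ac. The others were 1162 bp near WDR5 (58 fragments), a subunit of the H3K4 methyltransferase complexes, 1153 bp near LOC105373397 (76 fragments) and 1125 bp near CRABP2 (73 fragments), a retinoic acid carrier. RARB and CRABP2 belong to the same pathway, which was seen after the 5 were listed.

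Some regions stood beside acetylation and others far from it. The median distance to the nearest H3K27ac peak was 17.0 kb (quartiles 3.41 and 60.5 kb), or 27.1 kb when only H3K27ac peaks of -log10 q of at least 5 were counted, and for the intragenic class it was 7.27 kb (1.28 to 25.7 kb). Within 1 kb of H3K27ac lay 4786 regions (16.2%, 15.8 to 16.6), within 5 kb 29.0% (28.5 to 29.5), within 10 kb 40.2% (39.6 to 40.8) and within 50 kb 71.7% (71.2 to 72.2), while 4802 (16.3%) lay more than 100 kb away. Depth changed with this distance in a step. Regions under 1 kb and at 1 to 5 kb both had a median of 16 fragments, those at 5 to 10 kb had 11, and those in each farther class had 10. The median local background fell with it, from 1.80 and 1.84 fragments to 0.600 and then 0.517 beyond 100 kb, so the deposited fold ran the other way, from 5.29 under 1 kb to 6.88 beyond 100 kb. Median widths stayed between 169 and 175 bp in all 6 classes. The choice of regions fixed only that the distance was above 0, and 16 regions lay within 10 bp of H3K27ac, while 36 intervals left out shared 10 bp or less with it. The nearest was 5:1873379-1874022 by IRX4, a homeobox gene, with 103 fragments (84.1 to 125) at 2 bp from an H3K27ac peak. The 3 farthest were on chromosome X. A region of 7 fragments (2.81 to 14.4) by PRR32 lay 2677 kb from H3K27ac, a deeper one of 31 (21.1 to 44.0) by the same gene 2571 kb, and one of 6 (2.20 to 13.1) by DCAF12L1 2559 kb.

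**Figure D4:**
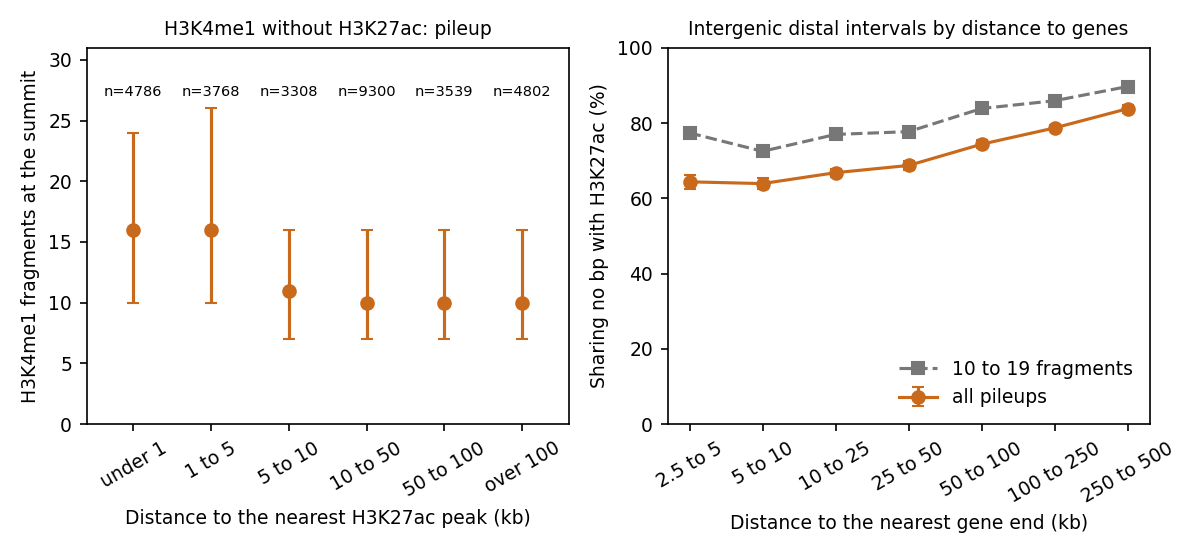
Left, H3K4me1 fragments at the summit (median with quartiles) of the regions without H3K27ac by distance to the nearest H3K27ac peak in kb. Right, share of intergenic distal H3K4me1 intervals sharing no bp with H3K27ac (percent, with exact 95% intervals) by distance to the nearest protein-coding gene end in kb, over all pileups and for 10 to 19 fragments only. Pileup drops from 16 to 11 between 1 to 5 kb and 5 to 10 kb, and the share rises from 64.4% to 83.8% with gene distance.

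The share lacking H3K27ac rose with distance from genes, also among intervals of 10 to 19 fragments. It was 64.4% at 2.5 to 5 kb from a gene end (62.5 to 66.3), 63.9% at 5 to 10 kb, 66.8% at 10 to 25 kb, 68.7% at 25 to 50 kb, 74.4% at 50 to 100 kb, 78.7% at 100 to 250 kb and 83.8% at 250 to 500 kb (82.7 to 84.9). Median pileup fell over the same classes from 18 to 13 fragments. Among intervals of 10 to 19 fragments alone, the share was 77.4% at 2.5 to 5 kb, dipped to 72.5% at 5 to 10 kb and reached 89.7% at 250 to 500 kb. The median H3K4me1-only region lay 57.1 kb from a gene end (18.6 to 151 kb), against 32.5 kb (12.3 to 89.3 kb) for both-mark regions. The gene's strand was known for 78.8% of regions, and of these 53.3% lay on the 5′ side of their nearest gene (52.6 to 53.9), against 51.5% of both-mark regions (50.5 to 52.6). The classes differed close to genes: at 2.5 to 5 kb, 50.9% of H3K4me1-only regions were on the 5′ side (48.1 to 53.7) and 35.3% of both-mark regions (31.7 to 39.0), so close to genes the both-mark regions lay more often on the 3′ side and the H3K4me1-only regions on either side about equally. At the limits of the choice, the 3 regions just beyond 2.5 kb were by TMEM190 (2501 bp, 6 fragments), FBXO10 (2503 bp, 4 fragments) and PRSS12 (2503 bp, 26 fragments). The intervals just short of it were by STYK1 (2494 bp, 9 fragments), PRDX6 (2498 bp, 45 fragments) and RNF187 (2499 bp, 14 fragments). The 3 just within 500 kb were by ADRA2A (8 fragments), ZNF608 (18) and USP25 (23), and 2193 further intervals without H3K27ac lay beyond it, such as one by ATP11B at 500008 bp with 6 fragments.

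Chromosomes differed as well, and whether this followed their distances to genes was not tested. The share without H3K27ac was lowest on chromosomes 22 (52.3%, 47.8 to 56.8), 19 (53.8%, 49.2 to 58.4), 17 (61.3%) and 21 (63.9%) and highest on chromosomes 18 (79.3%), 4 (79.8%) and X (80.5%, 77.9 to 83.0). Chromosome X was also the sparsest, with 9.05 H3K4me1-only regions per Mb of intergenic DNA within the distance limits against 22.7 over all chromosomes and 28.7 on chromosome 1, and its intervals had a median of 10 fragments where the other chromosomes had 13 to 18.

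By nearest gene, the regions were spread over many genes and concentrated at a few. Of 19974 protein-coding genes, 6666 (33.4%) were the nearest gene of at least 1 H3K4me1-only region, with a median of 2 regions per such gene. The 796 genes with 10 or more (3.99%) held 12915 regions (43.8%). SOX11, a neural progenitor transcription factor, had the most, 65 regions of 72 intervals (90.3%), with a median of 12 fragments, a maximum of 82 and a median of 38.7 kb to H3K27ac. GADD45G, a stress-response growth arrest gene, had 64 of 95 (67.4%), and ZNF608, a zinc finger gene, 63 of 72 (87.5%). These 3 genes reached similar counts in different settings: around GADD45G the regions lay a median of 1.5 kb from H3K27ac, among acetylated neighbours, and around ZNF608 21.9 kb away. MYC, the proliferation oncogene, had 53 of 104 intervals (51.0%), the deepest of the 10 leading genes with a median of 28 fragments and 0.822 kb from H3K27ac. USP25, a deubiquitinase, had 52 of 93 (55.9%), a median of 20 fragments and 2.23 kb to H3K27ac. TLE3 had 48 of 65 (73.8%), and ST3GAL1, a sialyltransferase, 46 of 59 (78.0%). NPVF, a neuropeptide precursor, had 43 of 54 (79.6%), RFC3, a DNA replication clamp loader, 39 of 46 (84.8%), and MBL2, a liver-made lectin, 39 of 44 (88.6%). A gene with much intergenic DNA around it can gather more regions, so density is given as well. GADD45G had 117 regions per Mb, NPVF 89.8, TLE3 84.3 and SOX11 65.3, where the genome had 22.7. Since a gene's intergenic DNA was limited to 0.995 Mb, genes picked for such counts had to exceed the genome's density.

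At the extremes of the share, picked after the values were seen, 318 genes had 20 or more intergenic intervals. At 8 of them no interval touched H3K27ac: MTX2 (28 regions), CHRM3 (24), FLRT2 (23), CFAP418 (23), PIK3C3 (22), SUCLG2 (21), ACVR2A (20) and INSC (20). MTX2, a mitochondrial import gene, is the neighbour of the HOXD cluster. CHRM3 encodes a muscarinic acetylcholine receptor and ACVR2A an activin receptor. The regions at FLRT2, an axon guidance gene, had a median distance to H3K27ac of 1032 kb, and at ACVR2A of 342 kb. Median pileups of these 8 genes ran from 8 to 15.5 fragments, which brackets the median of 12 for all regions. At the other end were LOC124900275 (30.0% without H3K27ac), TMEM121 (33.3%), TOMM20 (33.3%), LOC101927345 (38.1%) and RAB4A (42.3%).

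Gene lists were read against 2 backgrounds, the 33.4% of genes nearest to a region and the 72.4% of intervals without H3K27ac, and against the share that a list's mix of pileup classes alone would give. Of the androgen response genes, 18 of 25 had a region (72.0%, 50.6 to 87.9, above the 33.4%), and 125 of their 179 intervals lacked H3K27ac (69.8%, 62.5 to 76.5), close to the 72.4%, where pileup classes give 66.2%. MAF, a transcription factor, led with 27 of 30, a median of 12 fragments and 36.6 kb to H3K27ac. TMPRSS2, the androgen-driven serine protease gene, had 14 of 31 (45.2%), with 22 fragments and 0.706 kb. The prostate lineage factors had regions at 14 of 20 genes (70.0%, 45.7 to 88.1) and 68.3% without H3K27ac (59.4 to 76.3), where pileup classes give 69.9%. TRPS1, a GATA-type repressor, had 21 of 26, and GATA3, a luminal factor of breast and bladder, had all 13 of 13, a median of 105 kb from H3K27ac. Luminal markers had regions at 11 of 18 genes (61.1%, 35.7 to 82.7) and 74.2% (63.8 to 82.9), led by ACP3, the prostatic acid phosphatase (20 of 26, 1.70 kb from H3K27ac), and CD24 (9 of 11). Androgen response and luminal genes had 39.2 and 53.5 regions per Mb and prostate lineage factors 24.7, where the genome had 22.7. ACP3 alone gave 20 of the 66 luminal regions. Counting H3K4me1 intervals of either kind, the androgen response, luminal and lineage lists had 56.1, 72.1 and 36.2 per Mb. Housekeeping genes had 59.3 and the genome 31.4, and these densities were not tested.

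Developmental, synaptic and neuroendocrine genes had larger shares without H3K27ac than the lists above. Developmental transcription factors had a region at 47 of 51 genes, and 561 of 687 intervals lacked H3K27ac (81.7%, 78.6 to 84.5), against 75.9% from pileup classes. SOX11 and SOX9, a progenitor and cartilage factor (38 of 52, up to 81 fragments), led. Synaptic and cadherin adhesion genes had 259 of 292 intervals without H3K27ac (88.7%, 84.5 to 92.1), against 79.9% from pileup classes, at 30 of 40 genes. CNTN5, a neural adhesion gene, had 19 of 19 at a median of 105 kb from H3K27ac, and LRRTM4, a synapse organiser, had 19 of 22. Their density was low, 9.92 regions per Mb, in 26.1 Mb of intergenic DNA. Neuroendocrine regulators and markers had regions at 11 of 22 genes and 76 of 92 intervals without H3K27ac (82.6%, 73.3 to 89.7), against 71.5% from pileup classes. NCAM1, a neural adhesion molecule, had 21 of 28 with up to 84 fragments. FOXA2, a pioneer factor of endoderm and of neuroendocrine prostate tumours, had 18 of 18 with a median of 20.5 fragments, a maximum of 61 and 200 kb to H3K27ac, so these were deeper than the median region and far from acetylation. FOXA2 alone gave 18 of the 76 regions of this list. All these intervals count each region as independent, which close neighbours are not, and the differences between lists were not tested. The first 2 lists also had more intergenic DNA per gene, 0.349 and 0.672 Mb by median, where androgen response genes had 0.0454 Mb, and its part was not tested.

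**Figure D5:**
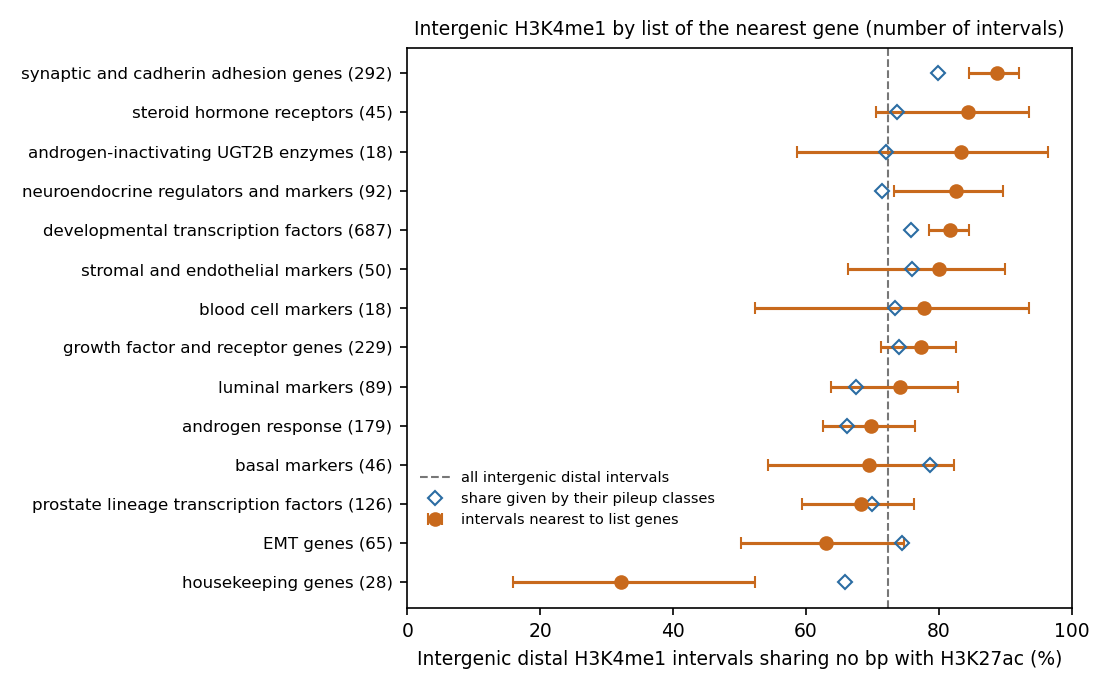
Share of intergenic distal H3K4me1 intervals without H3K27ac (x axis, percent) for the intervals nearest to the genes of 14 lists (number of intervals in brackets). Filled points carry exact 95% intervals, open diamonds give the share from each list's pileup classes, and the dashed line is the 72.4% of all intervals. Synaptic and cadherin adhesion genes stand highest at 88.7% and housekeeping genes lowest at 32.1%.

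The other lists held 18 to 229 intervals each. Steroid hormone receptors had 38 of 45 intervals without H3K27ac (84.4%, 70.5 to 93.5; pileup classes 73.7%) at 4 of 6 genes. PGR, the progesterone receptor, had 11 of 12 with up to 46 fragments, NR3C2, the mineralocorticoid receptor, had 11 of 14, and the oestrogen receptor genes ESR1 and ESR2 had no intergenic H3K4me1 interval. UGT2B enzymes, which inactivate androgens, had 15 of 18 (83.3%, 58.6 to 96.4) at 6 of 7 genes, with UGT2B28 at 4 of 5, UGT2B7 at 3 of 3 and none at UGT2B17. Growth factor and receptor genes had 177 of 229 (77.3%, 71.3 to 82.6) at 18 of 28 genes. LRIG3, a receptor tyrosine kinase regulator, had 31 of 33, and FGF9 had 19 of 19 at a median of 8 fragments and 494 kb from H3K27ac. EMT genes, which mark the epithelial to mesenchymal transition, had 41 of 65 (63.1%, 50.2 to 74.7) at 11 of 16 genes, with TGFB2 at 13 of 19 and SPARC at 6 of 9. Basal markers had 32 of 46 (69.6%, 54.2 to 82.3) at 9 of 20 genes, led by ITGA6 (8 of 14) and CAV2 (6 of 7). Stromal and endothelial markers had 40 of 50 (80.0%, 66.3 to 90.0) at 7 of 13 genes, led by CDH5 (15 of 18) and DCN (11 of 14). Blood markers had 14 of 18 (77.8%, 52.4 to 93.6) at 3 of 15 genes, led by PTPRC (7 of 8) and CD3E (5 of 7, 0.716 kb from H3K27ac). In each of these 7 lists, as in the androgen response, lineage and luminal lists, the interval held both 72.4% and the share from pileup classes. Housekeeping genes were lowest, with 9 of 28 intervals (32.1%, 15.9 to 52.4), where pileup classes give 65.8%, at 2 of 15 genes, led by YWHAZ (6 of 16).

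Some regions stood near others, which was not set against the spacing that their density alone would give. Joined over gaps of at most 12500 bp they formed 15258 groups, of which 8069 (52.9%) were single regions. The 876 groups of 5 or more held 5372 regions (18.2%), with a median length of 17.7 kb, and 486 of these groups (55.5%) had no H3K27ac peak anywhere inside. These shares depend on the gap: joined over 5 kb and 1 kb, groups of 5 or more held 4.11% and 0.725% of the regions, and 73.4% and 97.6% of such groups had no H3K27ac inside. The largest, 15:70396262-70447444 by UACA, an apoptosis regulator, held 17 regions, 1 further H3K4me1 interval and 2 H3K27ac peaks. The group at 21:16310338-16380127, with USP25 as nearest gene, held 16 regions among 26 H3K4me1 intervals and 12 H3K27ac peaks. Its regions had a median of 31 fragments. It lay inside the lncRNA gene MIR99AHG and ran up to the 500 kb limit, its last region being 499.919 kb from USP25. By INSIG1, 7:155213979-155277364 held 15 of 18 intervals. By RALGAPA2, 20:20737066-20789474 held 15 of 17. By MYC, 8:127870516-127910222, inside the lncRNA gene PVT1, held 14 of 20 and had the highest median depth of the 5, 52.5 fragments. The largest groups with no H3K27ac inside were 13 regions by AASDHPPT (11:106121421-106175120, median 17 fragments), 12 by NALF1 (13:107057407-107089807, 15.5) and 10 by TSHZ3, a developmental zinc finger factor (19:31078898-31112497, 16.5). The large groups thus included both stretches interleaved with acetylation and stretches free of it.

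Spacing between neighbours was short in a part of the set. Of 29480 pairs of neighbouring regions on the same chromosome, 6368 (21.6%) had summits within 1 kb, while the median spacing was 14.2 kb. No summits were under 100 bp apart and 103 pairs were 100 to 200 bp apart. Since regions do not overlap and are at least 87 bp wide, their widths limit how close summits can be. The commonest spacing was 300 to 400 bp (1171 pairs), followed by 400 to 500 bp (1122) and 500 to 600 bp (976), with 864 pairs at 200 to 300 bp. Whether close neighbours are 1 marked stretch that the peak caller split was not tested, and they are not independent of each other.

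Many regions lay in lncRNA genes, but less often at their ends than acetylated ones. Inside the span of a lncRNA gene lay 8405 regions (28.5%, 28.0 to 29.0), against 30.3% of both-mark regions (29.4 to 31.1). Within 2.5 kb of a lncRNA gene's end lay 11.1% (10.7 to 11.4), against 18.2% (17.5 to 18.9). Transcribed pseudogenes held 1.25% against 2.69%, and tRNA genes were overlapped by 3 regions (0.0102%) against 17 both-mark regions (0.151%). Of 18177 lncRNA genes, 3304 (18.2%) had a region in their span. That total also counts lncRNA genes lying within protein-coding genes, where the location limits allow no region. DLEU1, deleted in leukaemia, held 46 of 66 intergenic intervals (69.7%) in 13:50082169-50528643, with a median of 17 and a maximum of 63 fragments. PVT1, the neighbour of MYC, held 46 of 87 (52.9%) with a median of 31, and these include the MYC group described above. MIR99AHG, a microRNA host, held 31 of 66 (47.0%) in 21:16070488-16631727, and these include the USP25 group described above. LOC105373456 on chromosome 2 held 30 of 35 (85.7%), and PITX1-AS1 on chromosome 5 held 27 of 42 (64.3%). The RefSeq table counts antigen-receptor segments apart from protein-coding genes, so regions within 5 kb of them entered the set: 25 on chromosome 14, 22 on chromosome 7, 11 on chromosome 22 and 1 on chromosome 16.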

How the data were processed

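CUT&Tag peak lists for H3K4me1 and H3K27ac, 1 library each, were used as deposited. The submitters' processing notes name BWA, MACS2 and hg38. Versions, settings, treatment of duplicates and any background library are not given in the sources used here. The deposited fold is a ratio of summit signal to local background, and the authors' lists also give a score, -log10 p and -log10 q per peak. Total depth is unknown. Per the labels, an anti-mouse secondary antibody followed both primaries, which are rabbit products, and what this did to the signal was not tested. The fragments k at a summit and the background were recovered from the deposited fold, (k + 1) / (background + 1), and the Poisson -log10 p, by trying whole k (tolerance 0.001 in -log10 p or a relative 0.0001, backgrounds from 0.4). This failed for 34 H3K4me1 and 39 H3K27ac peaks, none of them H3K4me1-only regions. The step was tested on simulated data.

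Intervals were placed on RefSeq genes of GRCh38.p14 with Python 3.11.15, numpy 2.4.6, pandas 2.3.3, scipy 1.17.1 and matplotlib 3.10.9. Overlap meant at least 1 bp, and no H3K4me1 peaks overlapped each other. Each region was given to the protein-coding gene with the nearest end. Density used the intergenic DNA nearest to a gene, beyond 2.5 kb and within 500 kb, assembly gaps included. A list's share from pileup classes is the genome-wide share of each class, weighted by the list's intervals. Intervals are exact 95% binomial (Clopper-Pearson) or Poisson and cover counting error only, since fragments may include PCR duplicates. With 1 library per antibody no test was made.

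The regions, the 14 gene lists and the summaries were chosen with earlier results of these data known. Genes were named by rule: the nearest genes of the 10 deepest and 5 widest regions, the 10 genes with most regions, the 5 largest groups, the 2 leading genes of each list and those without a region where 3 or fewer, the regions at the distance limits, and the 5 lncRNA genes with most regions. Others are said to be chosen after their values were seen, as were the groups free of H3K27ac, the regions nearest to and farthest from H3K27ac, and the promoters and microRNAs. Sequence under regions away from RefSeq promoters, and promoters on chromosome 8, were not used here. A few named results are not reported here. Alternatives changed the overlap, the call thresholds, joining, the gene window, the genes used and the distance limit.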

Additional observations from a re-analysis of the deposited data

Results flagged for a closer look

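Chromosome Y was outside the set, which used chromosomes 1 to 22 and X. It carried 181 H3K4me1 peaks, a signal in data that the comparisons did not use and for which no control library was available here. Their median was 10 fragments, and 131 of them shared no base pair with any of the 66 H3K27ac peaks there.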

How the results depend on the processing

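The number of regions stayed within 1.5 times of 29503 under all 8 alternatives, from 19785 to 32200, and the number of groups rose from 15258 to 18908 and 22579 when joined over 5 and 1 kb. Asking that no H3K27ac peak lie within 1 kb gave a share without H3K27ac of 60.6% in place of 72.4%, a median pileup of 11, 61.2 kb to a gene end and 25.4 kb to H3K27ac. Counting H3K27ac only where it covered 50% of an interval gave 77.8%, 178 bp, 55.5 kb and 13.8 kb. H3K27ac peaks of -log10 q of at least 5 gave 79.0%, 177 bp, 55.3 kb and 27.1 kb. H3K4me1 peaks of that strength gave 66.9%, 192 bp, 14 fragments and 17.8 kb to H3K27ac. Joining intervals over 500 bp gave 68.6%, 194 bp, 59.1 kb and 22.6 kb. A gene window of 5 kb gave 72.9%, 63.5 kb and 18.2 kb. Using all RefSeq genes gave 74.9%, 11 fragments, 63.8 kb and 21.4 kb. No upper distance limit gave 73.0%, 65.9 kb and 18.8 kb. Distances shift by construction where the limits themselves change, and otherwise the cause was not tested. No paired analysis was possible because each antibody has 1 library. No peak under 4 fragments was called in either library, so a lack of overlap is not a lack of the mark.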
